A study of Mus musculus with 3 samples.

Results

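The 10 genes described here serve glucose uptake, glycolysis and lactate release, and were followed through whole neuroblastomas of TH-MYCN mice, from the glucose transporter gene Slc2a1 through Hk2, Pfkl, Aldoa, Tpi1, Pgk1, Eno1, Pkm and Ldha to the lactate exporter gene Slc16a3. They were taken by name, 10 of the 31053 genes measured. The rule that names them uses no measured value, but they were chosen with earlier results of these data known. The data are single-cell RNA-seq libraries (10x Chromium, 3′ ends) of 3 dissociated tumors, 1 from each of 3 mice aged 62 days (tumor 1), 79 days (tumor 2) and 63 days (tumor 3). All 3 mice were heterozygous for the transgene, in which the tyrosine hydroxylase promoter drives human MYCN in cells of the sympathetic lineage. The 3 tumors form 1 group, with no transgene-free sample beside them. The comparisons here are between cell classes of the same tumors.

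Glucose enters most cells through facilitative transporters and is held there by hexokinase, which phosphorylates it. The enzymes that follow split the sugar and carry it to pyruvate, making ATP on the way, and lactate dehydrogenase turns pyruvate into lactate so that the route can run without oxygen. Lactate leaves the cell through monocarboxylate transporters. Many genes of this route are known targets of MYC family proteins, which bind E-boxes, and of the hypoxia-inducible factors (HIF), and neutrophils are known for making most of their ATP by glycolysis.

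The sequences just before the transcription starts of these genes were read for the letters that both kinds of factor are known to bind. In the 250 bases upstream of each RefSeq transcription start (GRCm38.p6), CACGTG, the E-box, stood in 6.02% of 32851 windows of all genes, and ACGTG or GCGTG on either strand, the HIF core, stood in 38.6%; an E-box also holds the letters of the core. The 10 genes had 16 such windows, some of them overlapping. The core was found in 13 windows of 9 genes, with Tpi1 the gene without it, and the E-box in 1 window, of Ldha, where it stands 2 times. Shown here are windows of Hk2, Pgk1 and Ldha that overlap no annotated exon, and 30-base stretches before a start of Slc16a3 and of Slc2a1, the transporter genes that differ most between the cell classes below. The full windows of Slc16a3 and Slc2a1 do overlap an annotated exon, and both stretches reach into the annotated gene. Capitals mark an E-box or a core on either strand, and the letters run 5′ to 3′ on the gene's strand. A match is a description of these letters and no evidence of binding.
Slc2a1, chr4:119108699-119108728, plus strand: cccgccccggACGTGctccccaggccccgc
Hk2, chr6:82774455-82774704, minus strand: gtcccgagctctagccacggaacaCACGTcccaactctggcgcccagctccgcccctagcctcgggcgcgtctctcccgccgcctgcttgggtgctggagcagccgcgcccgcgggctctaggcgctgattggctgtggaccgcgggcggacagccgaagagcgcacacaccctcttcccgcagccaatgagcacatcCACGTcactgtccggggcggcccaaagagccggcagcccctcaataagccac
Pgk1, chrX:106186850-106187099, plus strand: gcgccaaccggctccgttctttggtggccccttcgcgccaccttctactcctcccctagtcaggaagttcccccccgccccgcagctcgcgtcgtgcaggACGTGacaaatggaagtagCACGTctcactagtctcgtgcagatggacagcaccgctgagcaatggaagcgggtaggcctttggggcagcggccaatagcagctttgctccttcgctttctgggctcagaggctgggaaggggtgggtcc
Ldha, chr7:46845554-46845803, plus strand: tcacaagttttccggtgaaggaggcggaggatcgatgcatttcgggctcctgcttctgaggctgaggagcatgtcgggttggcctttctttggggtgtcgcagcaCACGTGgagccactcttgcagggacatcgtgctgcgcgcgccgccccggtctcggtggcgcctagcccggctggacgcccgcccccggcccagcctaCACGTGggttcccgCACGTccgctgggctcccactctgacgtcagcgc
Slc16a3, chr11:120949037-120949066, plus strand: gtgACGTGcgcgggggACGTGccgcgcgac

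The deposited matrices held 3257, 4327 and 6038 cell barcodes for tumors 1, 2 and 3, and the 1914, 1221 and 2515 barcodes that the authors kept (5650 in all) were used. Their median depth was 4282.5, 1594 and 1816 UMIs per cell, a UMI being 1 counted RNA molecule, and at most 3 kept barcodes were shared by any pair of libraries. Cells fell into 22 clusters, which were named from markers of cell types with the 10 genes left out of the clustering, and UMIs were summed per tumor and class where a class had at least 10 cells. This gave 27 sums in 12 classes. The tumor-like class held 3280 cells (315, 874 and 2091 in tumors 1, 2 and 3), with 10 of 10 sympathetic markers detected in each tumor. The macrophage-like class held 885 cells (609, 97 and 179) and the neutrophil-like class 312 cells (236, 54 and 22), so the neutrophil-like values of tumor 3 rest on few cells. Levels below are counts per sum brought to a common total and scaled by trimmed mean of M-values (TMM), written as CPM.

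Markers of tumor cells were also counted in the other classes. Their summed level was 2196, 2235 and 2433 unscaled CPM in tumor-like cells of tumors 1, 2 and 3. In the other classes it ran from 14.2 to 128 CPM in tumor 1, from 283 to 1238 CPM in tumor 2 and from 730.1 to 1872 CPM in tumor 3, with at least 8 of the 10 markers detected in every class of tumors 2 and 3. Neutrophil-like cells had 48.1, 735 and 918 CPM of them, and macrophage-like cells 22.0, 582 and 788 CPM. The summed macrophage markers in neutrophil-like cells stood at 3219, 1725 and 986 CPM, beside 17171, 13930 and 11789 CPM in macrophage-like cells. The part of such RNA in the differences between classes of tumors 2 and 3 was not tested.

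**Figure D1:**
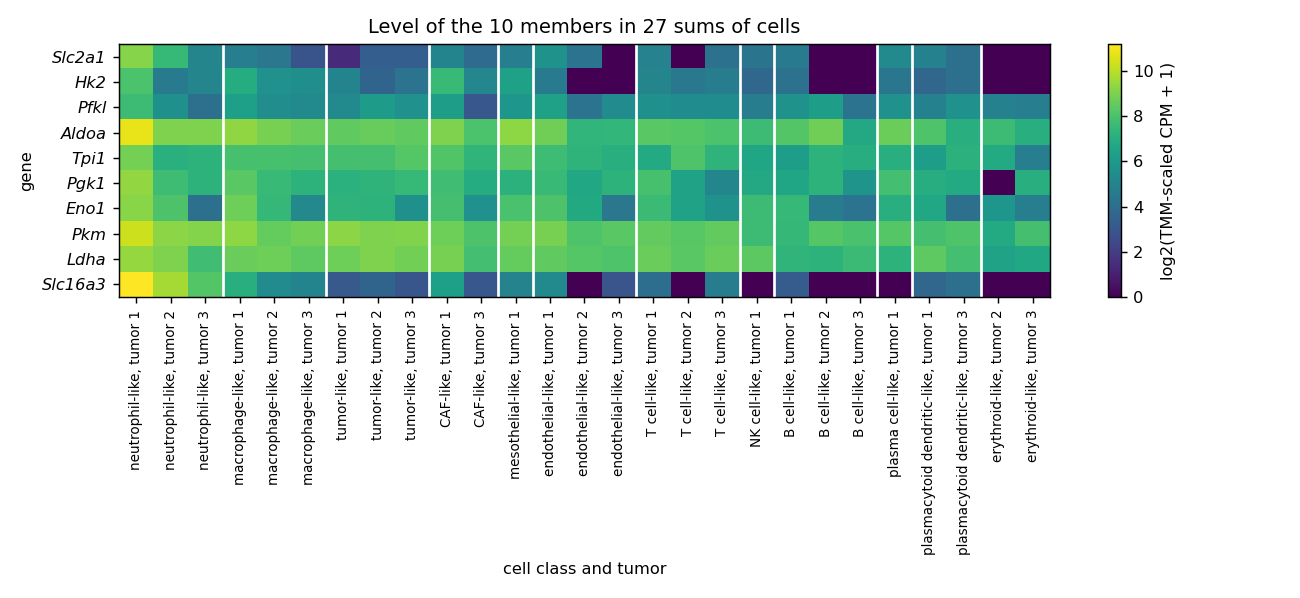
Heat map of the 10 genes (lines) in the 27 sums of tumor and cell class (columns), coloured by log2 of CPM plus 1. Lighter colours are higher levels. Slc16a3 is lighter in the 3 neutrophil-like columns than in any other, and Slc2a1 is so in those of tumors 1 and 2 but not of tumor 3. Aldoa, Pkm and Ldha are present in all columns.

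Neutrophil-like cells had the highest levels of the transport genes and of several enzymes between them. Slc16a3, Slc2a1, Hk2, Aldoa, Pkm and Pgk1 were higher in them than in the unweighted mean of the other 11 classes, which makes 6 of the 10 genes, where 14.0% of the 9734 genes tested were called higher and 1.29% lower. The median log2 difference of the 10 genes was 1.38, beside 0.16 over all genes tested. Calls are at an adjusted p under 0.05 in edgeR's quasi-likelihood test with Benjamini-Hochberg adjustment over all genes tested. Without tumor 1, which gives most neutrophil-like cells, 4 of the 10 genes were called. That fit called 584 genes higher and did not test Hk2. With tumor as a block 9 of the 10 were called, in a fit that called 1687 genes higher beside 1362 without the block.

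Slc2a1 (chr4:119108711-119137983, plus strand) encodes GLUT1, the basal glucose transporter of most tissues. In neutrophil-like cells its level was 566 CPM in tumor 1, 177 CPM in tumor 2 and 33 CPM in tumor 3, the last from only 2 UMIs. Outside that class the highest level was 52.8 CPM, in endothelial-like cells of tumor 1, and 22 of the 24 other sums lay below the lowest neutrophil-like one. Macrophage-like cells had 26.4, 20.7 and 6.45 CPM and tumor-like cells 1.54, 9.19 and 9.23 CPM in tumors 1, 2 and 3, so both classes lay below the neutrophil-like one in each tumor. The log2 difference of neutrophil-like cells from the other classes was 4.30 (SE 0.59, adjusted p = 5.96e-06 in edgeR's quasi-likelihood test), and it passed the threshold in 10 of 10 alternative analyses. Below the neutrophil-like class, the class means ran from 39.9 CPM in plasma cell-like to 0 in erythroid-like cells, and most neighbours in that order overlapped in their tumors' values.

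Slc16a3 (chr11:120948480-120960868, plus strand) encodes MCT4, a monocarboxylate transporter of cells that release much lactate. Neutrophil-like cells held 889, 103 and 18 UMIs of it, or 2341, 831 and 297 CPM in tumors 1, 2 and 3. All 24 other sums were lower than the lowest of these, the nearest being macrophage-like cells of tumor 1 at 131 CPM, and 8 sums held no UMI. The 3 neutrophil-like sums differ widely among themselves, and part of the value of tumor 1 is its TMM factor of 0.546, since its unscaled level was 1258 CPM beside 772 and 403 CPM in tumors 2 and 3. The log2 difference from the other classes was 7.68 (SE 0.62, adjusted p = 3.3e-09 in edgeR's quasi-likelihood test), between 6.10 and 8.25 in the alternatives and past the threshold in 10 of 10. Because NK cell-, erythroid- and plasma cell-like sums were all at 0, that difference depends on the small count the fit adds, and it is not a fold between measured levels.

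**Figure D2:**
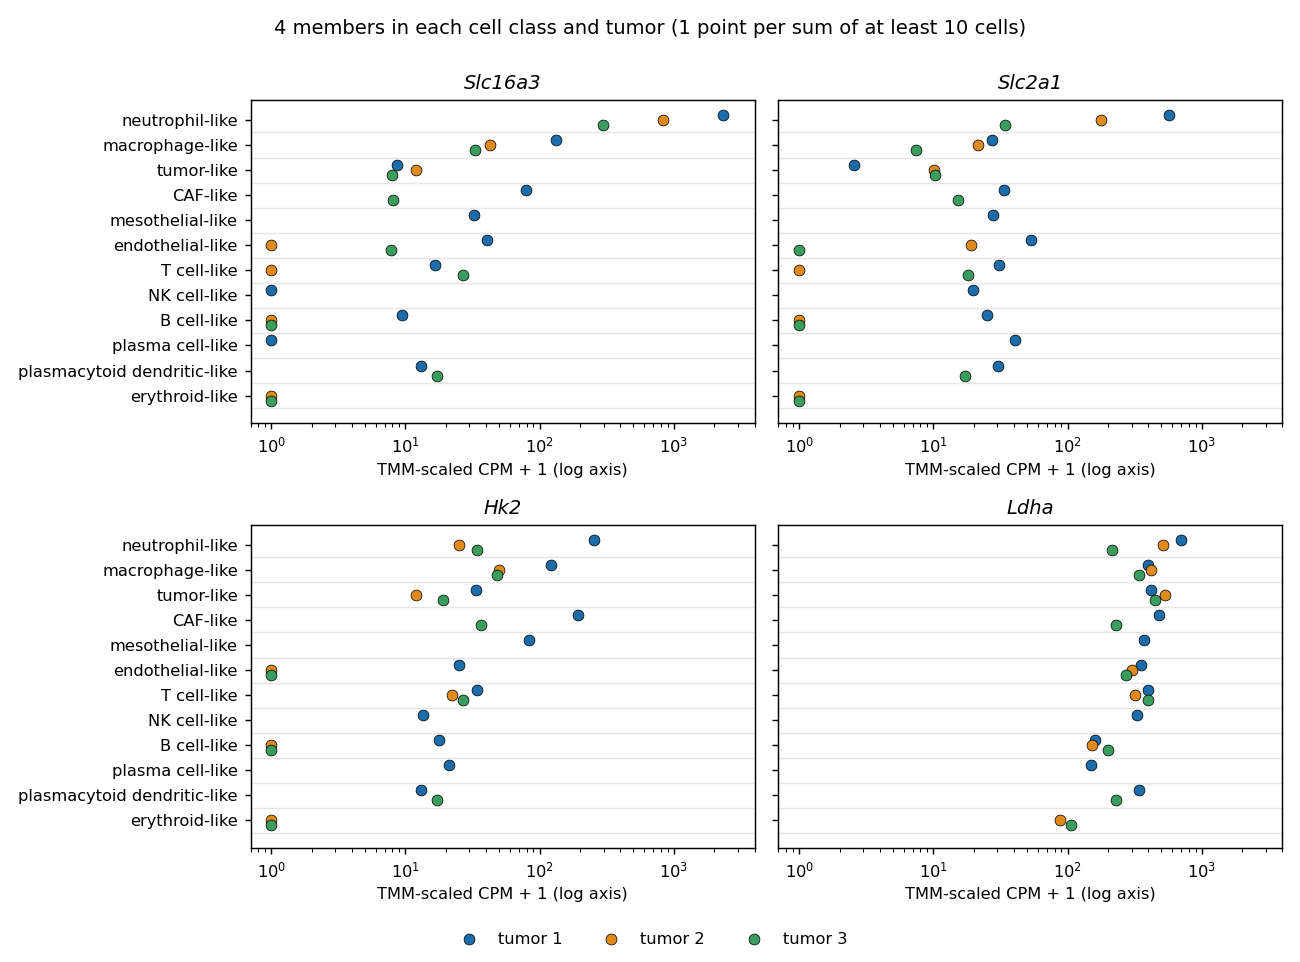
Level of Slc16a3, Slc2a1, Hk2 and Ldha in each cell class, as CPM plus 1 on a log axis, with 1 point per tumor. The 3 neutrophil-like points of Slc16a3 sit between 297 and 2341 CPM, all above every other sum, while the Ldha points of most classes overlap.

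The share of cells with a Slc16a3 UMI was compared after each cell was thinned to 500 UMIs, since median depth per cell ran from 2072 to 2608 UMIs among neutrophil-like and from 2838 to 8850 UMIs among macrophage-like cells. In neutrophil-like cells of tumor 1 the thinned share was 43.2% (exact binomial 95% interval 36.8% to 49.8%, and 82.2% before thinning). Tumor 2 gave 31.5% (19.5% to 45.6%, and 70.4% before thinning). In tumor 3 the thinned cells held none, 0 of 22 cells, which allows a share of up to 13.6%, although 8 of 22 cells (36.4%) had a UMI before thinning. B cell-like cells of tumor 1, a class not known for this gene, gave 0.490% (0.0124% to 2.70%) at a median depth of 4367 UMIs, and 0.980% before thinning. Macrophage-like cells gave 5.09%, 1.03% and 2.79% and tumor-like cells 0.952%, 0.687% and 0.239% in tumors 1, 2 and 3, so only the macrophage-like value of tumor 1 (3.48% to 7.15%) had an interval wholly above that of these B cell-like cells. These intervals cover counting error only.

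The levels of Slc16a3 outside neutrophil-like cells were set beside those of neutrophil markers. The 8 neutrophil markers, summed, reached 0.110%, 0.0566% and 0.162% of their neutrophil-like level in macrophage-like cells of tumors 1, 2 and 3, while Slc16a3 reached 8.11%, 5.27% and 7.45% of its own. In tumor-like cells Slc16a3 stood at 0.676%, 1.38% and 1.51% of its neutrophil-like level and the markers at 0.0952%, 0.0635% and 0.0256%. The Slc16a3 percentages were larger than the marker percentages in both classes of each tumor, and in tumor-like cells they rest on 5, 18 and 24 UMIs. The part of free RNA in these levels was not tested.

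Hk2 (chr6:82725025-82774454, minus strand) encodes the inducible hexokinase, which binds mitochondria. Neutrophil-like cells had 255, 24.2 and 33 CPM in tumors 1, 2 and 3, the last 2 values from 3 and 2 UMIs. CAF-like cells (cancer-associated fibroblasts) of tumor 1, at 191 CPM, and macrophage-like cells, at 121, 49.1 and 46.8 CPM, overlapped with that range, and 15 of 24 other sums lay below the lowest neutrophil-like one. The log2 difference was 2.77 (SE 0.67, adjusted p = 0.00427 in edgeR's quasi-likelihood test) and passed in 9 of 9 alternatives that tested it. Without tumor 1 the gene fell under the filter on low counts and was not tested.

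Pfkl (chr10:77986947-78010083, minus strand), the liver-type subunit of phosphofructokinase, had 203, 48.4 and 16.5 CPM in neutrophil-like cells, the last from 1 UMI. Only the sum of tumor 1 stood above the other classes, which lay between 7.13 and 83.6 CPM. Its log2 difference of 1.22 missed the threshold (adjusted p = 0.09997 in edgeR's quasi-likelihood test), and with tumor as a block it passed (adjusted p = 0.0219).

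Aldoa (chr7:126795234-126800751, minus strand), the aldolase of muscle and most other tissues, had 1825, 516 and 527 CPM in neutrophil-like cells and between 108 and 652 CPM in the other sums. Of these, 21 of 24 lay below all 3 neutrophil-like sums. The log2 difference was 1.62 (SE 0.36, adjusted p = 0.00194 in edgeR's quasi-likelihood test) and passed in 10 of 10 alternatives. The annotation (GENCODE M21) names a second gene Aldoa beside it, whose own line in the matrices held 3 UMIs in kept cells. Aldoa also has 15 near copies in the annotation, of which 2 are listed in the matrices and hold 1 UMI.

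Tpi1 (chr6:124810586-124814296, minus strand) encodes triosephosphate isomerase, which interconverts the trioses made by aldolase. It had 456, 137 and 148 CPM in neutrophil-like cells, with the sums of tumors 2 and 3 inside the range of the other classes. Its log2 difference of 0.72 was not called (adjusted p = 0.248 in edgeR's quasi-likelihood test). In DESeq2 the difference was 1.31 and was called (adjusted p = 0.0259). The end of its transcript matches its neighbour Spsb2 over 145 bases (91.0% identity), and Spsb2 held 342 UMIs, so the count of Tpi1 is less certain. The tumor-like levels of Tpi1, at 239, 237 and 301 CPM, lay above 17 of the 24 sums of other classes.

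Pgk1 (chrX:106187100-106203699, plus strand), phosphoglycerate kinase, which makes ATP, had 671, 210 and 148 CPM in neutrophil-like cells. Macrophage-like cells had 321, 194 and 152 CPM and overlapped with them, and 13 of 24 other sums lay below the lowest neutrophil-like one. The log2 difference of 1.37 (SE 0.44, adjusted p = 0.0359 in edgeR's quasi-likelihood test) was lost without tumor 1 (0.83, adjusted p = 0.257), without tumor 2 (1.53, adjusted p = 0.0948) and without TMM factors (1.03, adjusted p = 0.109), and it passed in 7 of 10 alternatives.

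Pkm (chr9:59656368-59679375, plus strand) encodes the muscle-type pyruvate kinase, the form also used by proliferating cells. Its neutrophil-like levels were 1314, 613 and 560 CPM, and 22 of 24 other sums were lower than all 3. The exceptions were macrophage-like and tumor-like cells of tumor 1, at 633 and 607 CPM. The log2 difference was 1.39 (SE 0.29, adjusted p = 0.000878 in edgeR's quasi-likelihood test) and passed in 10 of 10 alternatives.

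Ldha (chr7:46841475-46855627, plus strand) encodes the lactate dehydrogenase subunit that is best known for making lactate. It had 695, 516 and 214 CPM in neutrophil-like cells, where the sum of tumor 3 lay below most other sums. Only 6 of 24 other sums were lower than that one, and the highest of the others was tumor-like cells of tumor 2 at 528 CPM. The log2 difference of 0.82 missed the threshold (adjusted p = 0.0665 in edgeR's quasi-likelihood test) and passed with tumor as a block (adjusted p = 0.0201). It also passed in DESeq2 (1.32, adjusted p = 0.00204) and with clusters at a resolution of 0.5 (1.04, adjusted p = 0.00917). Eno1, described further on for its spread between tumors, had a log2 difference of 1.29 (adjusted p = 0.236 in edgeR's test, 0.00143 with the block and 0.0223 without the filter on low counts).

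Other genes of glucose metabolism and of the response to low oxygen moved with these in neutrophil-like cells. Of 43 listed pathway genes 23 were tested, and 7 were higher: Slc2a6 and Slc2a3, which encode further glucose transporters, Hk3, the hexokinase of blood cells, Pfkfb4 and Pfkfb3, which set the level of an activator of phosphofructokinase, Gpi1, which follows hexokinase, and Pgam1, which follows phosphoglycerate kinase. The median log2 difference of the 23 genes was 1.017. Slc2a6 had 166, 32.3 and 49.4 CPM in neutrophil-like cells and rose by 6.06 on the log2 scale (SE 0.80, adjusted p = 1.01e-05 in edgeR's quasi-likelihood test). Hk3 had 150, 24.2 and 16.5 CPM and a difference of 5.85, and Pfkfb4 had 311, 72.6 and 16.5 CPM and a difference of 5.31. In neutrophil-like cells of tumor 3 a level of 16.5 CPM is 1 UMI. For these 3 genes most other classes were at or near 0.

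Of 25 listed genes of the hypoxia response 21 were tested and 10 were higher in neutrophil-like cells, with a median log2 difference of 1.62. They were Egln3, an oxygen-sensing prolyl hydroxylase, Bnip3, a mitophagy receptor, Bhlhe40, a transcriptional repressor, and Vegfa, Hif1a, Hilpda, Ankrd37, Ndrg1, Ero1l and Mxi1. Egln3 had 89.5, 48.4 and 16.5 CPM in tumors 1, 2 and 3, the last again from 1 UMI (log2 difference 5.21, adjusted p = 5.02e-05 in edgeR's quasi-likelihood test). Bnip3 had 245, 72.6 and 0 CPM (log2 difference 4.31) and Bhlhe40 334, 32.3 and 82.4 CPM (log2 difference 3.34). Without tumor 1 the counts fell to 2 pathway genes and 1 hypoxia gene, and with the counts that the authors corrected for depth they were 2 and 5. Over all genes the calls of higher went from 1362 to 584 and 872 in these settings. These fits had 4515 and 5839 genes in common with the 9734 of the main fit. How far list genes that were no longer tested lowered both counts was not tested. Since the lists and the 10 genes were chosen with earlier results of these data known, these counts describe the class and are no independent support.

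Set against macrophage-like cells alone, the other large myeloid class, neutrophil-like cells differed in the transporters. Slc16a3 and Slc2a1 were higher, 2 of the 10 genes, where 3.75% of genes tested were called higher and 3.46% lower, and none of the 10 was lower. The log2 difference was 4.05 for Slc16a3 (SE 0.82, adjusted p = 0.00328 in edgeR's quasi-likelihood test) and 3.88 for Slc2a1 (SE 0.85, adjusted p = 0.00605). Both were lost without tumor 2, at 3.96 (adjusted p = 0.0786) and 4.12 (adjusted p = 0.101). The median of the 10 genes was 0.73, beside -0.19 over all genes tested.

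The remaining 8 genes were not called between the myeloid classes. Aldoa had a log2 difference of 0.93 (adjusted p = 0.366 in edgeR's quasi-likelihood test), Pkm of 0.78 (adjusted p = 0.312) and Ldha of 0.33 (adjusted p = 0.752). Among the pathway genes Slc2a3, the gene of the high-affinity transporter GLUT3, had 487, 210 and 49.4 CPM in neutrophil-like and 4.27, 2.58 and 9.68 CPM in macrophage-like cells. Its log2 difference was 5.57 (adjusted p = 0.000155), and Pfkfb4 followed with 2.46 (adjusted p = 0.0252). Eno3, the muscle-type enolase, was lower by a log2 difference of -4.52 (adjusted p = 0.00248). Of the hypoxia genes Egln3 and Bnip3 were higher, and with tumor as a block the pathway genes called higher numbered 5 and those lower 2, while over all genes the calls went from 365 to 647 higher and from 337 to 677 lower.

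**Figure D3:**
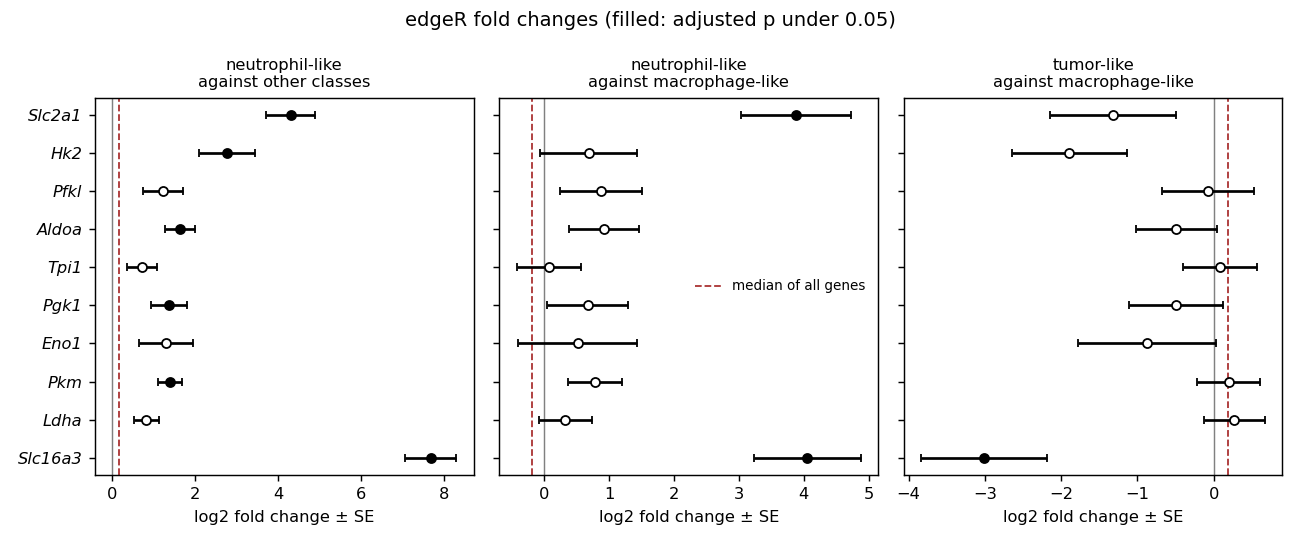
Log2 difference with its SE for the 10 genes in 3 comparisons. They are neutrophil-like cells against the other classes, neutrophil-like against macrophage-like cells, and tumor-like against macrophage-like cells. Filled points have an adjusted p under 0.05 in edgeR's quasi-likelihood test, and the dashed line is the median of all genes tested. Slc16a3 and Slc2a1 stand farthest from the line in both neutrophil-like comparisons, and Slc16a3 is the 1 filled point in the tumor-like comparison.

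Macrophage-like cells came next after neutrophil-like cells for Slc16a3. Their levels were 131, 41.3 and 32.3 CPM in tumors 1, 2 and 3, and the log2 difference from the other classes was 3.26 (adjusted p = 0.00955 in edgeR's quasi-likelihood test), the 1 gene of the 10 called higher, where 11.6% of all genes were called higher and 0.0925% lower. This call was lost without the 4 smallest classes, 3 of which were at 0 (1.30, adjusted p = 0.201), in DESeq2 (2.22, adjusted p = 0.154) and without tumor 1 (2.57, adjusted p = 0.0935). Hk2 had a log2 difference of 2.03 (adjusted p = 0.0572), which with tumor as a block was 2.49 (adjusted p = 5.11e-05). Eno3, at 178, 62.0 and 105 CPM, stood above all other sums, which had 0 to 38.0 CPM, with a log2 difference of 5.67 (adjusted p = 2.2e-07). In all, 5 of 23 pathway genes and 2 of 21 hypoxia genes were higher in the class, and with tumor as a block 4 of the latter.

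Macrophage-like cells were divided by markers into Pecam1+-like (243, 24 and 47 cells), Apoe+-like (67, 15 and 30 cells) and Ccr2+-like cells (116 cells, from tumor 1 alone). Subclusters of 149, 136 and 48 cells were left without a subset name and stayed in the macrophage-like sums. The one of 136 cells (44, 29 and 63 in tumors 1, 2 and 3) passed 7 of 8 Apoe+-like markers. It was not named because Phox2a and Chgb, markers of tumor-like cells, stood among its top 10 genes. Slc16a3 had 150, 89.2 and 87.1 CPM in Pecam1+-like cells of tumors 1, 2 and 3 and 163 CPM in the single Ccr2+-like sum. Its Apoe+-like levels were 49.9, 8.20 and 0 CPM, each below the Pecam1+-like level of the same tumor. The log2 difference of Apoe+-like cells from the other subsets was -2.26 (adjusted p = 0.0397 in edgeR's quasi-likelihood test), 1 of 9 genes tested, where 4.76% of genes were called lower and 5.86% higher (234 and 288 genes, and 154 and 294 in DESeq2). It was lost without tumor 2 (-2.18, adjusted p = 0.192) and without tumor 3 (-1.98, adjusted p = 0.0503). Without tumor 1, which removes the Ccr2+-like sum, it was -4.28 (adjusted p = 0.0214) and rested on 1 UMI in Apoe+-like cells.

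No other gene of the 10 was called between the macrophage-like subsets, and Slc2a1 was not tested there. With tumor as a block, Pecam1+-like cells had lower Pgk1 (log2 difference -0.95, adjusted p = 0.0339 in edgeR's quasi-likelihood test) and higher Slc16a3 (1.10, adjusted p = 0.0458). That fit called 414 genes higher and 271 lower of 4918, where without the block 86 (1.75%) were higher and 80 (1.63%) lower, and without TMM factors 142 and 72. In Ccr2+-like cells 60 genes (1.22%) were called higher and 40 (0.813%) lower, a split that turned to 27 higher and 71 lower in DESeq2. Hk2 had 180 CPM in Ccr2+-like cells of tumor 1 beside 90.5 and 75.9 CPM in Pecam1+- and Apoe+-like cells of that tumor, and Eno1 had 514 CPM beside 298 and 348 CPM. A class with a single sum is assumed to vary like the others in the fit. Eno3 was higher in Pecam1+-like cells by 4.65 on the log2 scale (adjusted p = 0.00315).

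Tumor-like cells had Ldha, Pkm and Tpi1 above most sums of the other classes, and none of the 10 genes passed the test against the other classes. Of all genes tested 26.2% were called higher and 1.97% lower, and 3332 and 300 genes had an unadjusted p under 0.05. Ldha had 421, 528 and 448 CPM in tumors 1, 2 and 3, a narrow range, and 21 of the 24 sums of other classes were below the lowest. Pkm had 607, 525 and 542 CPM and stood above 20 of 24. Their log2 differences were 0.76 for Ldha (adjusted p = 0.0529 in edgeR's quasi-likelihood test) and 0.75 for Pkm (adjusted p = 0.0607). With tumor as a block both passed, at 0.83 (adjusted p = 0.0121) and 0.85 (adjusted p = 0.0101). Of the listed genes 2 of 23 pathway genes, Tigar and Dlat, and 4 of 21 hypoxia genes, Vegfa, Mxi1, Fam162a and Higd1a, were higher, and with tumor as a block 1 hypoxia gene was lower.

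These tumor-like differences depend on what they are set against. The median of all genes tested was 0.48, above the median of 0.09 of the 10 genes, and with DESeq2's size factors the median of all genes was -0.56 and the split of calls turned from 2555 higher and 192 lower to 199 higher and 1999 lower. Over the alternatives the log2 difference ran from -0.02 to 0.88 for Ldha and from -0.01 to 0.87 for Pkm. In DESeq2 1 of the 10 genes was called lower, Slc2a1 (-2.70, adjusted p = 0.0238). Without the 4 smallest classes Slc2a1 (-2.37, adjusted p = 0.0234 in edgeR's quasi-likelihood test) and Slc16a3 (-2.36, adjusted p = 0.0223) were lower, and that setting called 1605 genes higher and 1543 lower.

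Slc2a1 had 1.54, 9.19 and 9.23 CPM in tumor-like cells, with 17 of the 24 sums of other classes above the highest of these and 6 below the lowest. Slc16a3 lay amid the other classes, with 13 sums above and 9 below.

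Against macrophage-like cells alone, tumor-like cells had lower Slc16a3, at 7.72, 11.0 and 6.92 CPM beside 131, 41.3 and 32.3 CPM. The log2 difference was -3.01 (adjusted p = 0.00943 in edgeR's quasi-likelihood test) and passed in 10 of 10 alternatives. It was the 1 gene of the 10 called, where 17.7% of genes were called lower and 7.21% higher (1725 and 702 genes, and 1749 and 65 in DESeq2). Hk2 had a log2 difference of -1.89 (adjusted p = 0.0673), and with tumor as a block -1.72 (adjusted p = 0.00245). Pfkl, Tpi1, Pkm and Ldha lay between -0.07 and 0.27. Among the pathway genes Slc16a1, the gene of the widespread monocarboxylate transporter MCT1, was higher, and Slc2a6, Eno3, Hk3, Pfkfb4 and Pfkfb3 were lower. With tumor as a block 2 pathway genes were higher, and 2 hypoxia genes where without it there was none, while over all genes the calls of higher went from 702 to 2122 of 9734.

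Within the tumor-like class, clusters of at least 20 cells from the same tumor differed in these genes as well. Unscaled Ldha ran from 304 to 667 CPM over 5 clusters of tumor 1, from 464 to 568 CPM over 6 clusters of tumor 2 and from 341 to 446 CPM over 7 clusters of tumor 3. Pkm ran from 558 to 1018, 374 to 628 and 417 to 507 CPM. Slc16a3 stayed at or below 48.0, 19.9 and 12.1 CPM in them. No cluster of the class met the markers of cycling cells, so cycling cells were not compared.

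Among the stromal classes CAF-like cells had higher Hk2, at 191 and 35.6 CPM in tumors 1 and 3, with a log2 difference of 2.80 (adjusted p = 0.00718 in edgeR's quasi-likelihood test). This was the 1 gene of the 10 called, where 13.9% of all genes were called higher and 0.113% lower. Of the listed genes 1 pathway gene, Ldhb (2 with tumor as a block), and 6 hypoxia genes were higher. In DESeq2 the difference was 2.39 and was not called (adjusted p = 0.209), and without tumor 1 the gene was not tested. Slc16a3 had 78 and 7.13 CPM there (log2 difference 2.69, adjusted p = 0.104, and with tumor as a block 2.62, adjusted p = 0.0213). None of the 10 genes was called in the 8 remaining classes. The genes called higher and lower there were 11.7% and 0.185% of all genes in endothelial-like, 10.2% and 0.0205% in mesothelial-like, 6.38% and 0.0719% in plasmacytoid dendritic-like, 3.40% and 0.0514% in plasma cell-like and 2.72% and 0.0925% in B cell-like cells. In T cell-like cells they were 2.49% and 0%, in NK cell-like cells 2.42% and 0.0205% and in erythroid-like cells 0.185% and 0.277%. Of these classes mesothelial-, NK cell- and plasma cell-like cells had a sum in tumor 1 alone.

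The class with the highest level did not always hold most of a gene's UMIs. Of the Slc16a3 UMIs in kept cells, neutrophil-like cells held 53.8%, 70.5% and 26.1% in tumors 1, 2 and 3, macrophage-like cells 37.3%, 11.0% and 29.0%, and tumor-like cells 0.303%, 12.3% and 34.8%. Of the Ldha UMIs, tumor-like cells held 7.05%, 67.3% and 79.9%. Tumor 1 differs from the others in its share of tumor-like cells, and the shares move with it.

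**Figure D4:**
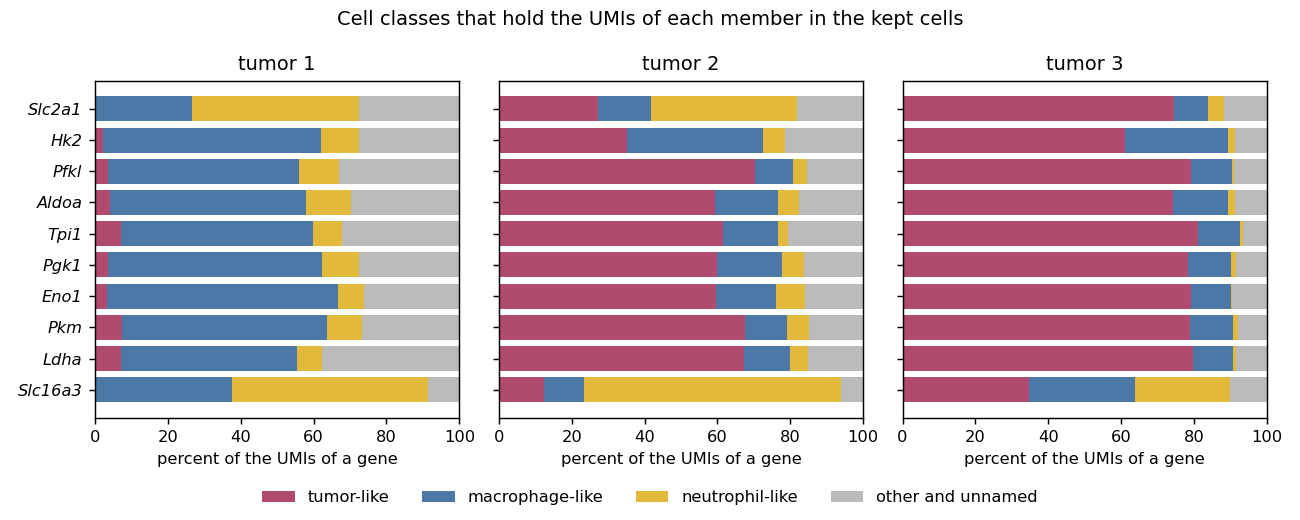
Percent of each gene's UMIs in kept cells that lay in tumor-like, macrophage-like, neutrophil-like and other cells, with 1 bar per tumor and gene. Neutrophil-like cells hold 53.8% and 70.5% of the Slc16a3 UMIs of tumors 1 and 2, and tumor-like cells 67.3% and 79.9% of the Ldha UMIs of tumors 2 and 3.

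Eno1 (chr4:150236721-150248879, plus strand), the enolase of most tissues, differed between tumors in every class that could be compared. Its level in tumor 3 was below that in tumor 1 in 8 of 8 classes with both sums, with a median ratio of 0.129, and below that in tumor 2 in 7 of 7, with a median ratio of 0.319. For Gapdh, another enzyme of the route, picked here after its values were seen, these ratios were 0.703 and 0.993. In tumor-like cells unscaled Eno1 was 168 CPM (exact Poisson 95% interval 137 to 205), 146 CPM (128 to 166) and 42.3 CPM (36.1 to 49.2), so the interval of tumor 3 lay below those of the others. In neutrophil-like cells it was 587, 266 and 16.5 scaled CPM and in macrophage-like cells 424, 173 and 37.1 CPM. The tumor 3 levels rest on 167 UMIs in tumor-like and 23 in macrophage-like cells. Neutrophil-, B cell-, erythroid- and plasmacytoid dendritic-like cells of tumor 3 held only 1 Eno1 UMI each, and endothelial-like cells 3. B cell- and erythroid-like cells of tumor 2 held 1 and 2, so the order in such classes rests on single UMIs. With 1 mouse per tumor the difference has no replicate, and tumor, mouse and library cannot be told apart.

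Within tumor 3 the low Eno1 level held across the tumor-like clusters, which ran from 27.1 to 55.2 unscaled CPM, beside 140 to 192 CPM in tumor 1 and 100.4 to 199.9 CPM in tumor 2. The last 400 bases of the Eno1 transcript, where 3′ libraries are counted, match those of its copy Eno1b in 99.5% of 397 bases. Reads shared by both can be dropped or split by the counting, so the level of Eno1 is less certain than that of the other genes. Eno1b held 43, 8 and 15 UMIs in kept cells of tumors 1, 2 and 3 (66 in all, beside 3757 of Eno1), and its part in the difference was not tested.

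**Figure D5:**
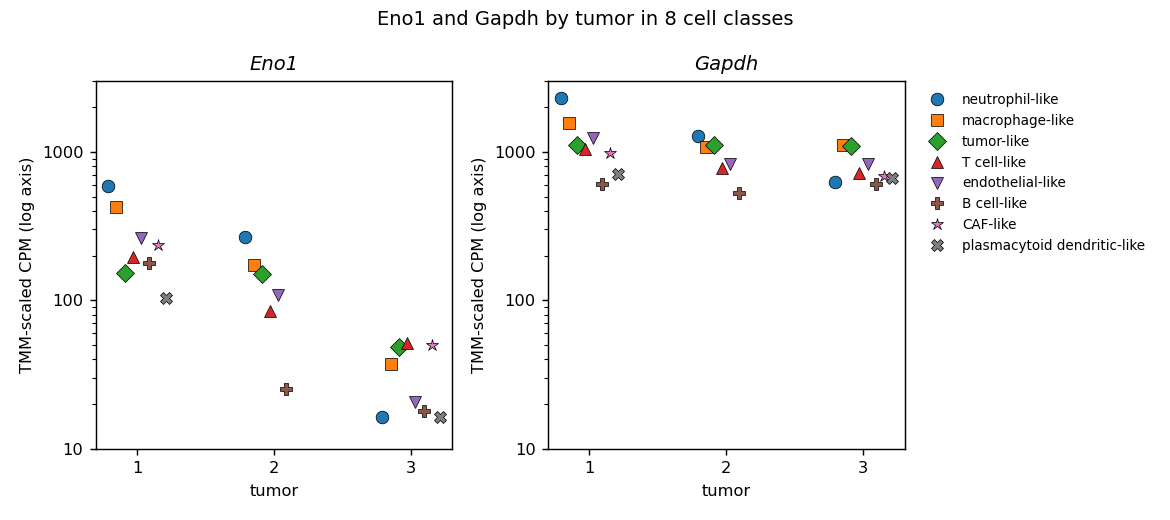
Level of Eno1 and of Gapdh in CPM on a log axis for each tumor, with 1 symbol per cell class, in 8 classes. The Eno1 points are lowest in tumor 3 in each class, at 48.1 CPM in tumor-like and 16.5 CPM (1 UMI) in neutrophil-like cells. The Gapdh points of tumor-like cells stay between 1100 and 1112 CPM.

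Of the other 9 genes, those with few UMIs also differed widely between tumors. For Slc16a3 the median ratio over shared classes was 0.209 for tumor 3 to tumor 1, 0.781 for tumor 3 to tumor 2 and 0.157 for tumor 2 to tumor 1. For Slc2a1 these ratios were 0.341, 0.312 and 0.329. Its values lie close to the level of single UMIs in many sums. Hk2 in tumor 3 was below tumor 1 in 7 of 8 classes (median ratio 0.287) and below tumor 2 in 1 of 7, and in tumor 2 it was below tumor 1 in 6 of 6 (median ratio 0.218). Aldoa in tumor 3 was below tumor 1 in 8 of 8 classes, at a median ratio of 0.479. For Tpi1 the median ratio of tumor 3 to tumor 1 was 1.11, and for Ldha 0.815. Eno1 was the 1 gene of the 10 that was lower in tumor 3 in every shared class against both other tumors, in some classes on 1 UMI. Its ratio of tumor 2 to tumor 1 was 0.425.

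The pattern of each gene over the 27 sums was set beside those of 7182 other genes by Pearson's r of log2 CPM, as a description, since the sums share tumors and depth. Slc16a3 was most like Hp (r = 0.92) and Csf3r (r = 0.91), both known from neutrophils. Aldoa was most like Gpi1 (r = 0.83), Tpi1 most like Pgam1 (r = 0.79) and Pgk1 most like Chmp4b (r = 0.93). Gapdh was among the nearest 2 genes of both Pkm (r = 0.85) and Ldha (r = 0.85). Pairs of the 10 genes ran from r = 0.30 to r = 0.78, the highest being Slc2a1 with Slc16a3.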

How the data were processed

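The 3 TH-MYCN tumors were profiled by the authors with 10x 3′ libraries; the submitters' processing notes name Cell Ranger 3.1.0 and Seurat 3.1.5. The deposited raw files hold UMI counts per gene and barcode, and the deposited normalized files hold natural log values that the authors made after correcting depth; their barcodes gave the kept cells, and the filters behind them were not changed. Corrected counts recovered from them are evened in depth and served as an alternative. No doublet caller was run here.

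Cells were integrated and clustered in Seurat 5.3.0 (2000 variable genes, 30 dimensions, resolution 1) without the members and lists. A cluster was named where at least 3 markers passed a fold of 2 and 10% of cells; the rule that a tumor's cells keep a name only with 3 markers detected in them, and the rule on the top 10 genes, were set after the data were seen. Within each tumor the raw counts of a class were added up (at least 10 cells) and tested in edgeR 4.0.16 (quasi-likelihood, TMM), each class against the unweighted mean of the others, with DESeq2 1.42.0 as an alternative; a class with 1 sum borrows its spread from the rest. The comparisons share sums. The model was tested on simulated data. Of the symbols, 98.1% matched GENCODE M21; RefSeq gave the upstream sequences.

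The members and lists were chosen with earlier results of these data known. Named genes were the members, up to 3 called list genes per list and direction with a mean of at least 50 CPM, and 2 genes by likeness; other called list genes are named after their values were seen. Sums of the same tumor deviated together from their class means (median r 0.388 over 45 pairs, 41 above 0.1), so tumor was also fitted as a block. The median between tumors, -0.272, is no separate contrast, since deviations from a class mean cancel out over its 3 tumors. Mouse, library and RNA shared within a tumor cannot be told apart here.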

Additional observations from a re-analysis of the deposited data

Results flagged for a closer look

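Barcodes that the authors did not keep, which enter no comparison above, show the same order of Eno1 as the kept cells, with 204 CPM in tumor 1, 122 CPM in tumor 2 and 35.3 CPM in tumor 3, beside 248, 150 and 40.5 CPM over all kept cells. Slc16a3 was also found in a cluster of 123 cells that no marker list named, led by Ccl4, Ccl3 and Hdc, where its unscaled level was 113 CPM in tumor 1 (23 UMIs) and 103 CPM in tumor 2 (2 UMIs). No group of 4 or more samples exists here, so no library was tested for standing apart.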

How the results depend on the processing

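The number of the 10 genes called higher in neutrophil-like cells was 6, between 4 and 9 in all alternatives; no called difference reversed. The count of 1 called higher in macrophage-like cells was 0 in DESeq2 and without the 4 smallest classes (chosen after seeing the data), 2 without TMM factors, without a filter on low counts, with the block and at a resolution of 0.5, and 0 to 1 with 1 tumor left out; that in CAF-like cells was 0 in DESeq2, 2 without TMM factors, without the filter and with the block, and 0 to 1 with 1 tumor left out. For tumor-like cells the count of 0 called higher was 2 without TMM factors and with the block, and that of 0 called lower was 1 in DESeq2 and 2 without the 4 smallest classes. Against macrophage-like cells 1 was lower, and 2 without the filter, with the block and with corrected counts; of neutrophil-like against macrophage-like cells 2 were higher, 0 to 2 with 1 tumor left out. Without TMM factors 1 was lower in plasma cell-like cells. Among subsets, Apoe+-like lower was 0 to 1 with 1 tumor left out, Ccr2+-like higher 2 without the filter (Eno1 and Slc16a3), Pecam1+-like higher 1 with the block and 0 to 1 with 1 tumor left out, and lower 1 with the block and with corrected counts. The cause of these shifts was not tested. The split of calls of neutrophil-like against macrophage-like cells was 365 higher and 337 lower, 345 and 96 in DESeq2, and 364 and 579 without TMM factors. Depth limits the low genes: Slc2a1 and Hk2 had 2 UMIs each in neutrophil-like cells of tumor 3.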

Other observations

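Other listed genes marked classes in which none of the 10 was called, except Hk2 in CAF-like cells. Mesothelial-like cells of tumor 1, 16 cells with no replicate sum, had Ldhb at 347 CPM, Slc16a1 at 201 CPM and Aldoc at 51.4 CPM, with log2 differences of 5.76, 4.47 and 6.06 from the other classes (adjusted p = 1.16e-06, 2.3e-06 and 0.000171 in edgeR's quasi-likelihood test). Erythroid-like cells had Bpgm at a mean of 395 CPM over 2 tumors and a log2 difference of 4.33 (adjusted p = 0.000112 in the same test). Its enzyme makes the bisphosphoglycerate that lowers the oxygen affinity of hemoglobin. Of the genes of the low-oxygen response, Epas1, which encodes an oxygen-regulated transcription factor known from vessels, had a mean of 380 CPM in endothelial-like cells (log2 difference 6.45, adjusted p = 1.42e-10), and Adm, which encodes the vasodilator adrenomedullin, 192 CPM in CAF-like cells (log2 difference 6.30, adjusted p = 6.61e-08).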
